A study of Mus musculus with 10 samples.

Results

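Cartilage transcripts of 10 genes were followed across mouse osteoblast samples of 3 genotypes. They comprise 3 SOX transcription factors (Sox9, Sox5 and Sox6) and 7 non-collagen matrix genes (Acan, Matn1, Matn3, Comp, Ucma, Hapln1 and Chad). Every probe set that the array's annotation gives to 1 of these symbols was taken, 26 of the 34958 probe sets with a single gene symbol, and thus 10 of 18194 genes. Of these, 22 passed a filter on low signal, which asks that the third-highest of the 10 values lie above the table's median of 7.15 on the log2 scale.

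Total RNA of osteoblasts, the bone-forming cells, was hybridised to 10 Affymetrix arrays. All mice were 2 to 3 days old and carried the background written as C5BL6 in the labels, and sex is recorded as indeterminate. The groups are wild type (n = 4), mice with β-catenin constitutively expressed in osteoblasts only (β-catenin active, n = 3) and mice with FoxO1 deleted in osteoblasts only (FoxO1 deleted, n = 3). The promoter that drives either change, the allele, and whether a sample is 1 animal, a pool or a culture are not stated in the labels. The p-values therefore cover only how these samples differ from each other, a spread that may be technical.

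SOX9 is the transcription factor that chondrocytes need to form, and SOX5 and SOX6 act beside it on cartilage matrix genes. The matrix that results is a collagen mesh filled with aggrecan, a large chondroitin sulfate proteoglycan that is anchored to hyaluronan by link protein and tied to the mesh by matrilins and COMP. β-catenin and SOX9 are known to oppose each other in skeletal progenitors, and cartilage and bone lie side by side in the newborn skeleton.

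Regulatory sequence is shown for 4 matrix genes, Ucma, Matn1 and Acan because their signals ran together across the arrays, and Chad because its signal did not. Each is the stretch of 250 bases upstream of the annotated start in RefSeq, build GRCm38.p6, plus strand, at chr2:4975872-4976121 for Ucma, chr4:130944135-130944384 for Matn1, chr7:79052976-79053225 for Acan and chr11:94564797-94565046 for Chad. Letters are printed 5′ to 3′ in lower case, with matches to any of 4 motifs in capitals.
Ucma: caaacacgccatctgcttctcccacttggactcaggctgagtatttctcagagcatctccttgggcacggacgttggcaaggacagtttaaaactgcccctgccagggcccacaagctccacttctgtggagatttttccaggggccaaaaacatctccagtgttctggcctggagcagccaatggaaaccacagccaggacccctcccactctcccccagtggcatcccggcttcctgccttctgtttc
Matn1: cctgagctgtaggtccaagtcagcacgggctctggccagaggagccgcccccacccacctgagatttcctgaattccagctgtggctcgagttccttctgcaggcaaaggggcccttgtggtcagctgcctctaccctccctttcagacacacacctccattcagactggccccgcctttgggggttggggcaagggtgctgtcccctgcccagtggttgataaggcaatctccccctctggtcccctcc
Acan: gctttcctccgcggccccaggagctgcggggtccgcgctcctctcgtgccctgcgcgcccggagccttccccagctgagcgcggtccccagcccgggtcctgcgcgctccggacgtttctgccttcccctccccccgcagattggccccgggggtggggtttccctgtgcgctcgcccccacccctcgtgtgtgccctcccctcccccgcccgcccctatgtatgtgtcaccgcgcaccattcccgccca
Chad: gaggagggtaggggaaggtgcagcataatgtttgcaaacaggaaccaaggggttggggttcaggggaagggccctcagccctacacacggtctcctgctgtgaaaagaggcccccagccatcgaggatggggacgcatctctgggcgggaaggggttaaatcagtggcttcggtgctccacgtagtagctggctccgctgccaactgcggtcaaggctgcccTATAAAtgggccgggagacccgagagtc

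The motifs searched were a SOX motif (AACAAT or ATTGTT), a TCF/LEF motif (CTTTGAT or ATCAAAG), a forkhead motif (GTAAACA or TGTTTAC), each on both strands, and the TATA motif (TATAAA, gene strand only). No motif is contained in another. Among all 32851 such windows, 9.42% held the SOX motif, 3.21% the TCF/LEF motif, 3.17% the forkhead motif and 7.59% the TATA motif. The only match in the 4 windows printed is the TATA motif of Chad, which begins at position -28 counted from the start. RefSeq windows were found for 8 of the 10 genes, 13 windows in all since Sox6 has several starts. Among the others, Sox6 windows held a TCF/LEF match at -64, SOX matches at -236 and -225 and a TATA match at -225, while those of Sox5, Matn3 and Hapln1 held none. The Acan window had a GC content of 74.4% against 62% for Matn1, 60.4% for Chad and 56.4% for Ucma. A match describes letters in the window and shows no binding.

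Some properties of the arrays bear on every value below. Wild type 1 and 2 correlated at 0.988 over the 20127 kept probe sets and wild type 3 and 4 at 0.987, against 0.971 to 0.972 between the pairs, and whether each is a separate animal is not stated. Signal of Xist, made from the inactive X chromosome, was high (14.05 to 14.43 on the log2 scale) in wild type 3 and 4 and FoxO1 deleted 2 and 3, and at 8.96 or less in the other 6 arrays. The 3′ minus 5′ signal of Actb, a measure of RNA integrity, ran from 0.6 to 0.77 in wild type and from 0.8 to 0.99 in the other arrays; its part in the results was not tested. Osteoblast markers were present, with Col1a1 at 15.04 to 15.35 and Sp7 at 10.92 to 11.82. The altered genes showed no check of the labels: 3 Ctnnb1 probe sets (lowest value 9.89) and 3 kept Foxo1 probe sets (lowest value 7.95) were measured in every array and the labels do not say where either gene was changed. With FoxO1 deleted the kept Foxo1 probe sets differed from wild type by 0.047, 0.098 and -0.17 on the log2 scale. With active β-catenin the Ctnnb1 probe sets differed by -0.028, -0.28 and -0.34, the last with a limma adjusted p of 0.0946.

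None of the 22 kept cartilage probe sets passed limma's test over 20127 probe sets (Benjamini-Hochberg adjusted p under 0.05) in any comparison. The share of all probe sets that passed was 0.507% for β-catenin active against wild type, 0.0149% for FoxO1 deleted against wild type and 0.442% for β-catenin active against FoxO1 deleted. At an unadjusted p under 0.05, 5, 11 and 2 of the 22 lay under the limit, against 2299, 1591 and 1540 of all 20127. The 5 include Sox9 (1424950_at) and Sox5 (1432189_a_at), and the 11 include the same Sox9 probe set. All wild-type values of both lay under the table's median, so they passed the filter only through altered arrays and cannot count as support. A wild-type value lay above the table's median for 19 of the 22. Their median log2 difference was 0.24 for active β-catenin and 0.50 for FoxO1 deletion. Over all kept probe sets, a set without that restriction, it was -0.0033 and -0.012. The comparisons with wild type share the wild-type arrays. In bulk RNA, fewer cells of a type and less RNA per cell cannot be told apart.

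**Figure D1:**
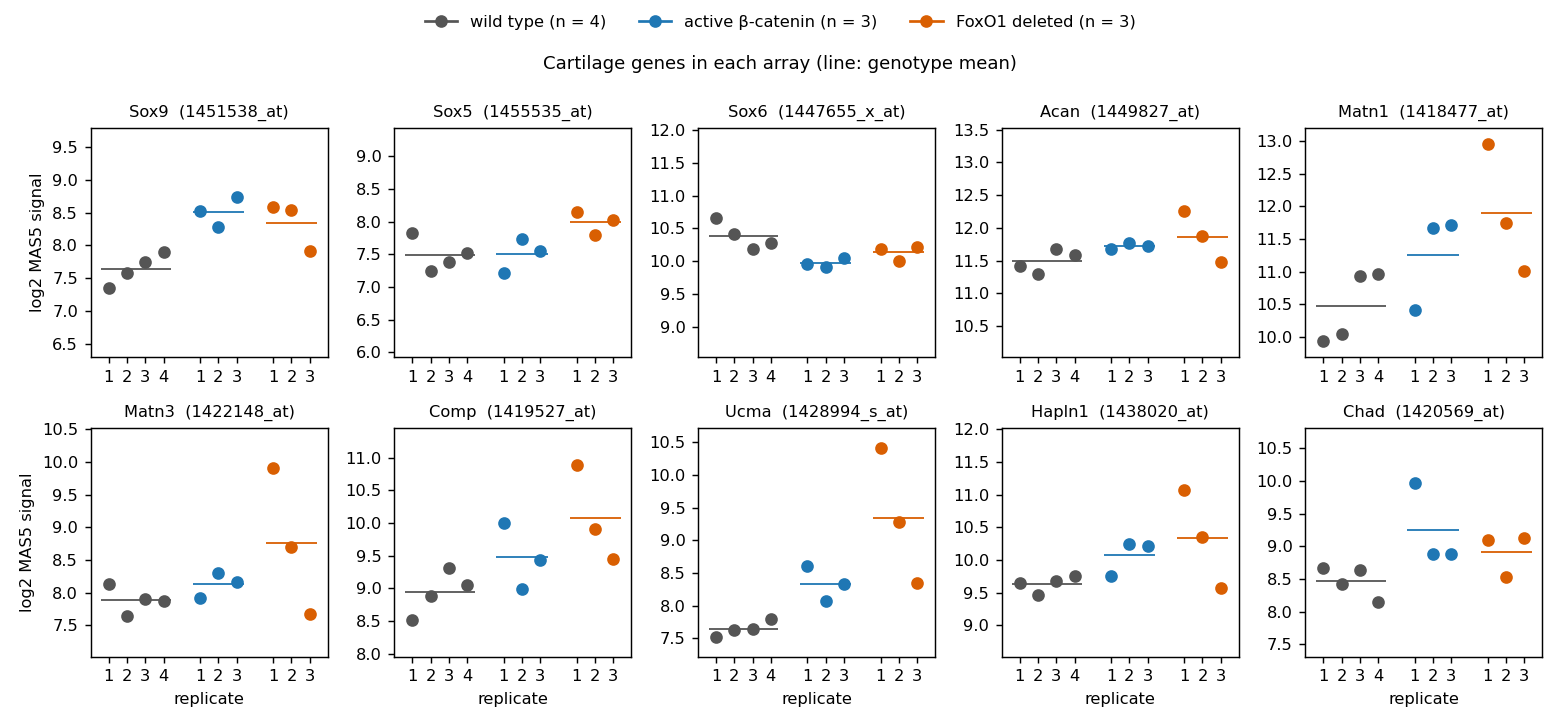
Log2 MAS5 signal (vertical axis, each panel spanning the same 3.5 units) of the 10 cartilage genes in every array (horizontal axis, replicate number; grey wild type, blue β-catenin active, orange FoxO1 deleted), each gene by the kept probe set of highest mean; lines are genotype means. FoxO1 deleted 1 is the highest array for Matn1 (12.95), Ucma (10.41) and 5 other genes, while Sox9 is higher in all 6 altered arrays (7.92 or more) than in wild type (7.9 or less).

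Among the regulators, Sox9 set the altered arrays apart from wild type. Its probe set with the higher signal (1451538_at) read 7.35, 7.58, 7.75 and 7.9 in wild type 1 to 4. It read 8.52, 8.29 and 8.74 in the arrays with active β-catenin and 8.59, 8.54 and 7.92 in those with FoxO1 deleted. Every altered array thus lay above every wild-type array, FoxO1 deleted 3 only just above wild type 4. The log2 difference from wild type was 0.87 ± 0.20 (SE; 1.83-fold, limma adjusted p = 0.0921) with active β-catenin and 0.71 ± 0.20 (1.63-fold, adjusted p = 0.463) with FoxO1 deleted, and neither passed.

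A further Sox9 probe set (1424950_at) gave nearly the same differences, 0.93 ± 0.21 (adjusted p = 0.0895) and 0.82 ± 0.21 (adjusted p = 0.400). It correlated with the first at 0.90 over the 10 arrays. All 4 of its wild-type values, 6.47 to 7.08, lay under the table's median, so it passed the filter only through the altered arrays and its difference cannot count as separate evidence. The last Sox9 probe set (1433889_at) stayed between 2.18 and 5.84 in all arrays and was not tested. Without FoxO1 deleted 3, which enters only the shared spread, the difference of 1451538_at with active β-catenin passed (adjusted p = 0.0442). With the similar wild-type arrays averaged to 1 unit each its adjusted p was 0.570.

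Sox5 and Sox6 did not follow Sox9. Sox5, of which the annotation lists 7 probe sets, was near the table's median throughout. Its probe set with the highest mean (1455535_at) read 7.82, 7.24, 7.38 and 7.52 in wild type, 7.22, 7.74 and 7.55 under active β-catenin, and 8.14, 7.8 and 8.02 with FoxO1 deleted. The FoxO1-deleted arrays stood above all with active β-catenin but overlapped wild type, where wild type 1 reached 7.82. The difference was 0.50 ± 0.19 (adjusted p = 0.581) with FoxO1 deleted and 0.013 ± 0.19 (adjusted p = 0.990) with active β-catenin. The 4 kept Sox5 probe sets agreed poorly, with pairwise correlations from 0.045 to 0.85, and their differences with active β-catenin ran from 0.0058 to 0.55. At 2 of them (1432189_a_at, which gave the 0.55, and 1440827_x_at) all wild-type values lay under the table's median, so these passed the filter only through altered arrays. The 3 others lay under 7.15 in every array.

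Sox6 was the only one of the 10 genes to be lower in both altered genotypes at all of its probe sets. The highest (1447655_x_at) read 10.66, 10.42, 10.19 and 10.28 in wild type, 9.95, 9.91 and 10.05 under active β-catenin, and 10.18, 10 and 10.22 with FoxO1 deleted. All arrays with active β-catenin lay below all wild-type arrays, and the FoxO1-deleted arrays overlapped wild type 3. The differences were -0.42 ± 0.12 (adjusted p = 0.162) with active β-catenin and -0.25 ± 0.12 (adjusted p = 0.630) with FoxO1 deleted. Over its 4 probe sets they ran from -0.42 to -0.058 and from -0.53 to -0.13. Thus 4 of the 10 kept SOX probe sets were negative in each comparison, and none passed.

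The matrix genes showed another pattern, in which 1 array stood out. All 12 of their kept probe sets had a positive difference from wild type in both altered genotypes, with medians of 0.38 and 0.76 on the log2 scale, and none passed (lowest adjusted p 0.252 and 0.310). FoxO1 deleted 1 was the highest of the 10 arrays for 11 of the 12, which it was for 6.35% of all kept probe sets. The order FoxO1 deleted 1 over 2 over 3 held for 11 of the 12, against 15.1% of all. In wild type, replicates 3 and 4 both lay above 1 and 2 for 10 of the 12, against 21.9% of all.

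Matn1, a cartilage matrilin, and Ucma, a small secreted protein of growing cartilage, had the widest ranges. Matn1 read 9.94, 10.04, 10.94 and 10.97 in wild type, 10.41, 11.66 and 11.71 under active β-catenin, and 12.95, 11.74 and 11.01 with FoxO1 deleted. All 3 FoxO1-deleted arrays exceeded wild type, the lowest by 0.04, whereas β-catenin active 1 lay within the wild-type range. The difference was 1.43 ± 0.45 (2.69-fold, adjusted p = 0.503) with FoxO1 deleted and 0.79 ± 0.45 (adjusted p = 0.563) with active β-catenin.

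Ucma (1428994_s_at) read 7.53, 7.63, 7.65 and 7.8 in wild type, 8.61, 8.07 and 8.34 under active β-catenin, and 10.41, 9.28 and 8.35 with FoxO1 deleted. No altered array overlapped wild type. It was the matrix gene with the largest difference, 1.69 ± 0.36 (3.24-fold, adjusted p = 0.310) with FoxO1 deleted, against 0.69 ± 0.36 (adjusted p = 0.513) with active β-catenin. Against the wild-type mean the 3 FoxO1-deleted arrays stood 6.76-fold, 3.09-fold and 1.62-fold higher, so a single genotype spanned a range wider than the mean difference. The other Ucma probe set (1428993_at) correlated at 0.967 and differed by 1.57 ± 0.37 (adjusted p = 0.358) and 0.71 ± 0.37 (adjusted p = 0.518).

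Comp, a thrombospondin-family protein that binds matrix collagens, read 8.52, 8.89, 9.31 and 9.06 in wild type, 10, 8.99 and 9.43 under active β-catenin, and 10.89, 9.91 and 9.45 with FoxO1 deleted. The FoxO1-deleted arrays cleared wild type, and β-catenin active 1 was second of all 10. The differences were 1.14 ± 0.32 (2.20-fold, adjusted p = 0.463) with FoxO1 deleted and 0.53 ± 0.32 (adjusted p = 0.596) with active β-catenin.

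Matn3, the other cartilage matrilin among the 10, read 8.13, 7.64, 7.91 and 7.87 in wild type, 7.92, 8.3 and 8.17 under active β-catenin, and 9.9, 8.7 and 7.68 with FoxO1 deleted (1422148_at). FoxO1 deleted 3 lay inside the wild-type range and FoxO1 deleted 1 stood 4.03-fold over the wild-type mean. The SD was 1.11 with FoxO1 deleted and 0.20 in wild type, so the difference of 0.87 ± 0.38 (adjusted p = 0.623) was smaller than the spread within the genotype. Its other probe set (1455948_x_at) differed by 0.82 ± 0.41 (adjusted p = 0.660).

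Acan encodes aggrecan. Its 1 probe set read 11.42, 11.29, 11.67 and 11.58 in wild type, 11.67, 11.77 and 11.72 under active β-catenin, and 12.26, 11.87 and 11.47 with FoxO1 deleted. It had the narrowest range of the matrix genes, 0.97, and neither altered genotype cleared wild type. The differences were 0.38 ± 0.16 (adjusted p = 0.608) with FoxO1 deleted and 0.23 ± 0.16 (adjusted p = 0.644) with active β-catenin.

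Hapln1 encodes the link protein that holds aggrecan on hyaluronan. Its highest probe set (1438020_at) read 9.65, 9.47, 9.68 and 9.76 in wild type, 9.76, 10.24 and 10.21 under active β-catenin, and 11.07, 10.35 and 9.57 with FoxO1 deleted. FoxO1 deleted 3 again lay within wild type. The 4 Hapln1 probe sets agreed, with pairwise correlations of 0.887 to 0.961, and differed by 0.36 to 0.69 with FoxO1 deleted and 0.17 to 0.43 with active β-catenin. For 3 of them FoxO1 deleted 3 was the lowest of all 10 arrays while FoxO1 deleted 1 was the highest, 2.06 to 2.23 apart.

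Chad, a leucine-rich repeat protein that binds chondrocytes, went its own way. It read 8.67, 8.43, 8.64 and 8.15 in wild type, 9.97, 8.88 and 8.88 under active β-catenin, and 9.09, 8.53 and 9.13 with FoxO1 deleted. The arrays with active β-catenin cleared wild type, and the highest of all was β-catenin active 1. The difference was 0.77 ± 0.26 (1.71-fold, adjusted p = 0.252) with active β-catenin and 0.44 ± 0.26 (adjusted p = 0.693) with FoxO1 deleted.

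Arrays that do not overlap were counted without a test and without the 3 probe sets (1 of Sox9 and 2 of Sox5) whose wild-type values all lay under the table's median, a restriction added after the values were seen. Of the 19 left, 4 (1 of Sox9, both of Ucma, and Chad) had every array with active β-catenin above every wild-type array, against 6.01% of all probe sets with a wild-type value above that median, and 2 of Sox6 had every array below, against 6.88%. With FoxO1 deleted, 5 (1 of Sox9, both of Ucma, Matn1 and Comp) had every array above, against 3.86%, and 0 had every array below, against 5.01%. Over all kept probe sets these shares were 6.39%, 6.81%, 4.1% and 4.96%. Between both altered genotypes 11 of the 12 matrix probe sets were lower with active β-catenin, by a median of -0.47, and none passed (lowest adjusted p 0.518, Ucma). Without FoxO1 deleted 1 that median was -0.005 and 6 of the 12 were lower, with none passing. An effect of one genotype larger than that of the other was not shown for any of the 10 genes.

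**Figure D2:**
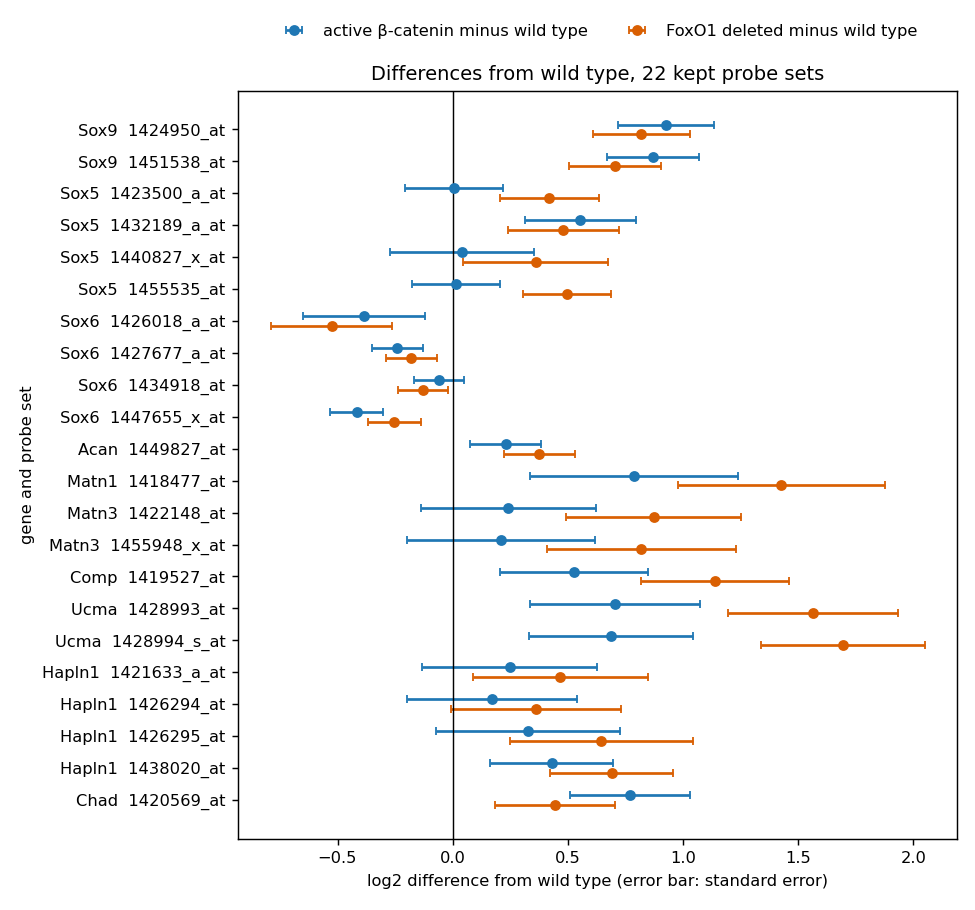
Log2 difference from wild type (horizontal axis) with its standard error for each of the 22 kept probe sets (vertical axis, gene and probe set), blue for β-catenin active and orange for FoxO1 deleted. Matrix genes lie to the right of 0 in both, up to 1.69 for Ucma, Sox6 lies to the left, and none passes the test over all probe sets.

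How far FoxO1 deleted 1 carries the matrix values is seen by leaving it out. The median difference of the 12 matrix probe sets with FoxO1 deleted was then 0.33 in place of 0.76, and 10 of the 12 were positive. Ucma (1428994_s_at) then differed by 1.16 ± 0.25 (limma adjusted p = 0.337), Matn1 by 0.90 ± 0.41 (0.547) and Comp by 0.74 ± 0.28 (0.485). Matn3 (1422148_at) differed by 0.30 ± 0.26, Acan by 0.18 ± 0.13, and 2 Hapln1 probe sets turned negative (-0.063 and -0.13). Without FoxO1 deleted 3, in contrast, the median was 1.32 and Ucma (1428994_s_at) passed (2.19 ± 0.27, adjusted p = 0.0449).

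FoxO1 deleted 1 is also the only FoxO1-deleted array with low Xist signal. Among arrays with high Xist signal alone, FoxO1 deleted 2 and 3 against wild type 3 and 4, the median over the 12 matrix probe sets was 0.27, 9 were positive and none passed (1 had an unadjusted p under 0.05 in limma). Ucma (1428994_s_at) differed there by 1.09 ± 0.33 (adjusted p = 0.571), Matn1 by 0.42 ± 0.24 and Acan by 0.045 ± 0.16. With active β-catenin, whose arrays all had low Xist signal, the median of the matrix probe sets was 0.60 against wild type 1 and 2 alone and 0.22 with a term for Xist signal, and none passed in either. These splits were chosen after the data had been seen, except the term for Xist signal.

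The genes were also described by how alike they were across the 10 arrays, which are not independent since they share genotypes. Pairs among Acan, Matn1, Matn3, Comp, Ucma and Hapln1 correlated at 0.73 to 0.95 (median 0.87, 15 pairs). After each genotype's mean was removed the median was 0.84. Sox9 correlated with these 6 at a median of 0.73, Sox5 at 0.57, Chad at 0.19 and Sox6 at -0.47. With genotype means removed, these medians were 0.68 for Sox9, 0.27 for Sox5, -0.10 for Chad and -0.22 for Sox6. The 6 matrix genes thus varied together over the 10 arrays, also with genotype means removed, but not in every genotype. Among the arrays with active β-catenin, Comp and Ucma were highest in β-catenin active 1 (10 and 8.61). Matn1, Matn3, Acan and Hapln1 were lowest of that genotype in the same array (10.41, 7.92, 11.67 and 9.76).

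By a rule that ranks 5099 other genes with enough spread by their Pearson correlation with the mean profile of the 10, the most alike were Snorc, a small cartilage proteoglycan (0.980), Cnmd, which encodes chondromodulin (0.960), Efcab1 (0.957), Col2a1, the main cartilage collagen (0.956), Col9a1 (0.950), Susd5 (0.949) and Col9a3 (0.946). Ncmap (0.897), Drp2 (0.896) and Ntrk2 (0.895) closed the list of 10. For Efcab1 and Ncmap all wild-type values lay under the table's median, so these genes passed the filter only through altered arrays. Snorc read 8.7, 8.88, 8.88 and 8.9 in wild type, 9.45, 9.54 and 9.53 under active β-catenin, and 10.64, 9.77 and 9.14 with FoxO1 deleted. Col2a1 read 11.54, 11.86, 12.32 and 12.21 in wild type, 12.61, 12.75 and 13.09 under active β-catenin, and 14.02, 12.9 and 12.5 with FoxO1 deleted. For both genes no altered array overlapped wild type, and FoxO1 deleted 1 was highest. Both were chosen for their likeness to a profile of that shape, so this adds no support. Cnmd and Col9a3 overlapped wild type with active β-catenin, Efcab1 with FoxO1 deleted, and Drp2 and Ntrk2 with both. Col9a1, Susd5 and Ncmap did not overlap it.

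**Figure D3:**
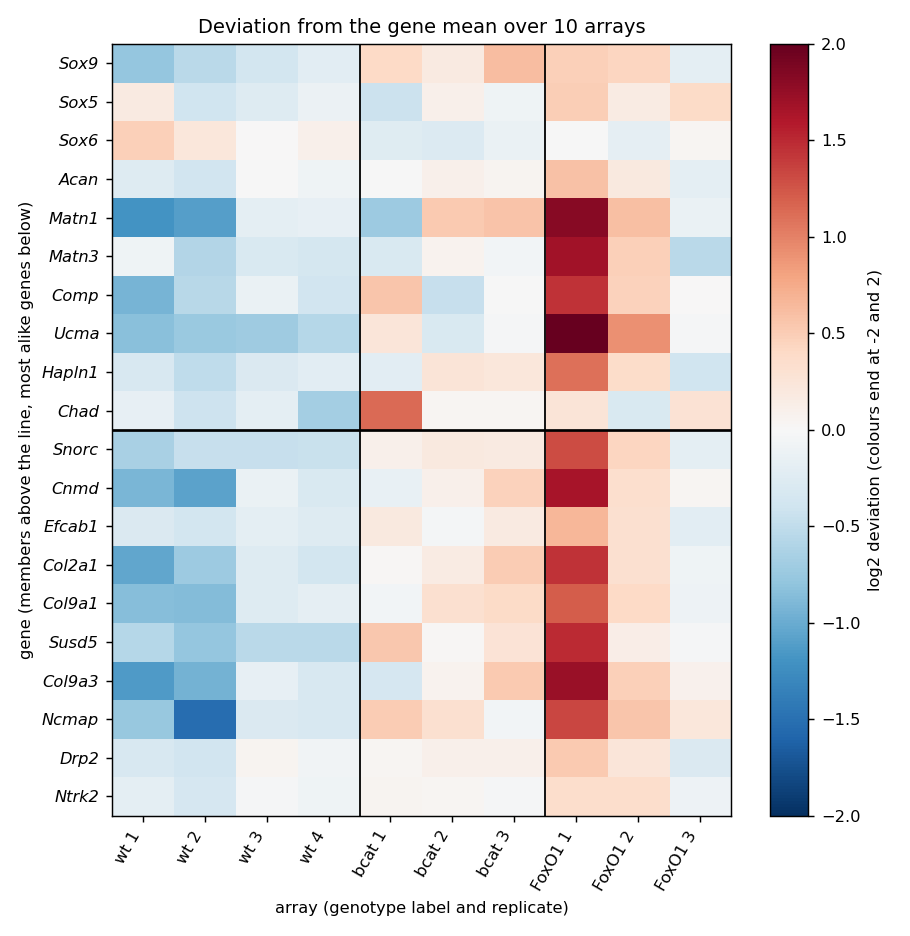
Deviation of each gene (vertical axis) from its own mean over the 10 arrays, in log2 units by colour, for every array (horizontal axis: wt wild type, bcat β-catenin active, FoxO1 FoxO1 deleted, with the replicate). The 10 cartilage genes stand above the line and the 10 most alike other genes below it; FoxO1 deleted 1 is the darkest red column for most, while Chad is highest in β-catenin active 1 and Sox6 in wild type 1.

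Other cartilage genes came from lists, each gene by its probe set with the highest mean. Of the cartilage collagens, 7 of 8 genes were kept and 0 passed limma's test in either comparison with wild type (3 and 4 at an unadjusted p under 0.05, a limit that 1379 and 900 of all 11357 genes met). Their medians were 0.40 for active β-catenin and 1.04 for FoxO1 deletion, against 0.005 and 0 over all 11357 genes. Col2a1 differed by 0.83 ± 0.30 (adjusted p = 0.293) and 1.16 ± 0.30 (0.418), and Col9a3 by 1.41 ± 0.36 with FoxO1 deleted (0.403). Col11a2 differed the other way with active β-catenin (-0.28 ± 0.12, adjusted p = 0.405), and is named here after its values were seen. Col11a1, which osteoblasts also express, differed by -0.0033 ± 0.090 and 0.11 ± 0.090.

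Of the list of other cartilage matrix genes, 16 of 21 were kept and 0 passed, with medians of 0.12 and 0.34. The unadjusted p in limma was under 0.05 for 3 and 9, against the same 1379 and 900 of 11357. The 9 with FoxO1 deleted include Prg4, whose wild-type values, 5.79 to 7.02, all lay under the table's median. Prg4 thus passed the filter only through altered arrays and cannot count as support, and it also enters both medians. Fmod, the collagen-binding proteoglycan fibromodulin, read 13.74 to 14.01 in wild type, 14.22 to 14.28 with active β-catenin and 14.15 to 14.57 with FoxO1 deleted (0.35 ± 0.10, adjusted p = 0.178, and 0.47 ± 0.10, 0.348). Cilp, a cartilage intermediate layer protein, differed by 0.78 ± 0.24 (0.203) with active β-catenin. Vcan, the proteoglycan versican of loose mesenchyme, differed by -0.028 ± 0.11 and -0.17 ± 0.11 at its probe set of highest mean. With FoxO1 deleted the other 3 kept Vcan probe sets gave -0.32, -0.43 and -0.65 (limma adjusted p = 0.639, 0.573 and 0.589). Each of the 3, all of 1 gene, had every array below wild type, as held for 4.96% of all kept probe sets.

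The enzymes that build chondroitin sulfate, the side chain of aggrecan, stayed near 0 as a list. Of 21 genes 18 were kept and 0 passed limma's test (2 and 1 at an unadjusted p under 0.05, close to the share of the 1379 and 900 among 11357 genes), with medians of -0.051 for active β-catenin and 0.033 for FoxO1 deletion. Ugdh, which makes the sugar donor UDP-glucuronate, differed by -0.45 ± 0.13 (adjusted p = 0.162) with active β-catenin, with every array below wild type, and Chst11, a chondroitin sulfotransferase, by 0.40 ± 0.11 (0.177), with every array above. Of all 11357 genes, 768 had every array with active β-catenin below wild type and 826 had every one above. Chsy3, a chondroitin synthase, differed by -0.41 ± 0.14 (0.534) with FoxO1 deleted. Growth plate and hypertrophy genes, 9 of 12 kept, had medians of 0.06 and -0.048, and 0 passed (1 and 0 at an unadjusted p under 0.05 in limma). Ptch1, a hedgehog receptor and target, differed by 0.37 ± 0.11 (0.190) with active β-catenin, and Mmp13, a collagenase of hypertrophic chondrocytes and osteoblasts, by 0.44 ± 0.23 (0.660) with FoxO1 deleted.

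Among SOX relatives and partners 8 of 11 were kept and 0 passed limma's test, with medians of 0.14 and 0.053. The unadjusted p in limma was under 0.05 for 2 and 3 of the 8, against 1379 and 900 of all 11357 genes. Sox8, the close relative of Sox9, read 6.53 to 7.18 in wild type, against 8.27, 6.93 and 7.73 with active β-catenin, a difference of 0.88 ± 0.30 (adjusted p = 0.250) between levels around the table's median. With FoxO1 deleted, Sox11 differed by -0.54 ± 0.23 (adjusted p = 0.615) and Sox12 by -0.40 ± 0.13 (adjusted p = 0.518), each at its probe set of highest mean, with every array below wild type, as held for 504 of all 11357 genes. Some other probe sets of both genes overlapped wild type, and Sox4, their close relative, differed by 0.042.

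Markers of other cell types varied between the same arrays. Expressed as the mean deviation of a list from its gene means, the 7 matrix genes scored 1.27 in FoxO1 deleted 1, 0.39 and -0.14 in the other FoxO1-deleted arrays, 0.036 to 0.11 with active β-catenin and -0.61 to -0.27 in wild type. Osteoblast markers (5 of 8 genes kept) stayed between -0.13 and 0.20 in all arrays. Macrophage and osteoclast markers (4 of 4) were lowest in FoxO1 deleted 1 (-0.55) and ran from -0.17 to 0.38 elsewhere. Their part in the cartilage result was not tested.

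Skeletal muscle markers (4 of 4 kept) ranged from -0.98 in β-catenin active 1 to 0.73 in β-catenin active 2, and scored 0.59 in FoxO1 deleted 1 and 0.55 and 0.49 in wild type 3 and 4. Tendon and ligament markers (4 of 4) were at -0.62 and -0.48 in wild type 1 and 2 and between -0.070 and 0.44 in the other arrays. Erythroid markers (3 of 4) scored 0.56 to 1.90 in wild type, -2.40 to -0.73 with active β-catenin, and -1.43, 1.43 and -0.80 in FoxO1 deleted 1 to 3. All 3 genes were lower in every array with active β-catenin than in wild type, as held for 768 of all 11357 genes. Endothelial markers (4 of 4) scored -0.26 to -0.011 in wild type, against 0.16 to 0.24 with active β-catenin. Muscle and tendon scores were thus higher in wild type 3 and 4 than in 1 and 2, as the matrix genes were, but FoxO1 deleted 1 was not the highest for either. Their part in the result was not tested.

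**Figure D4:**
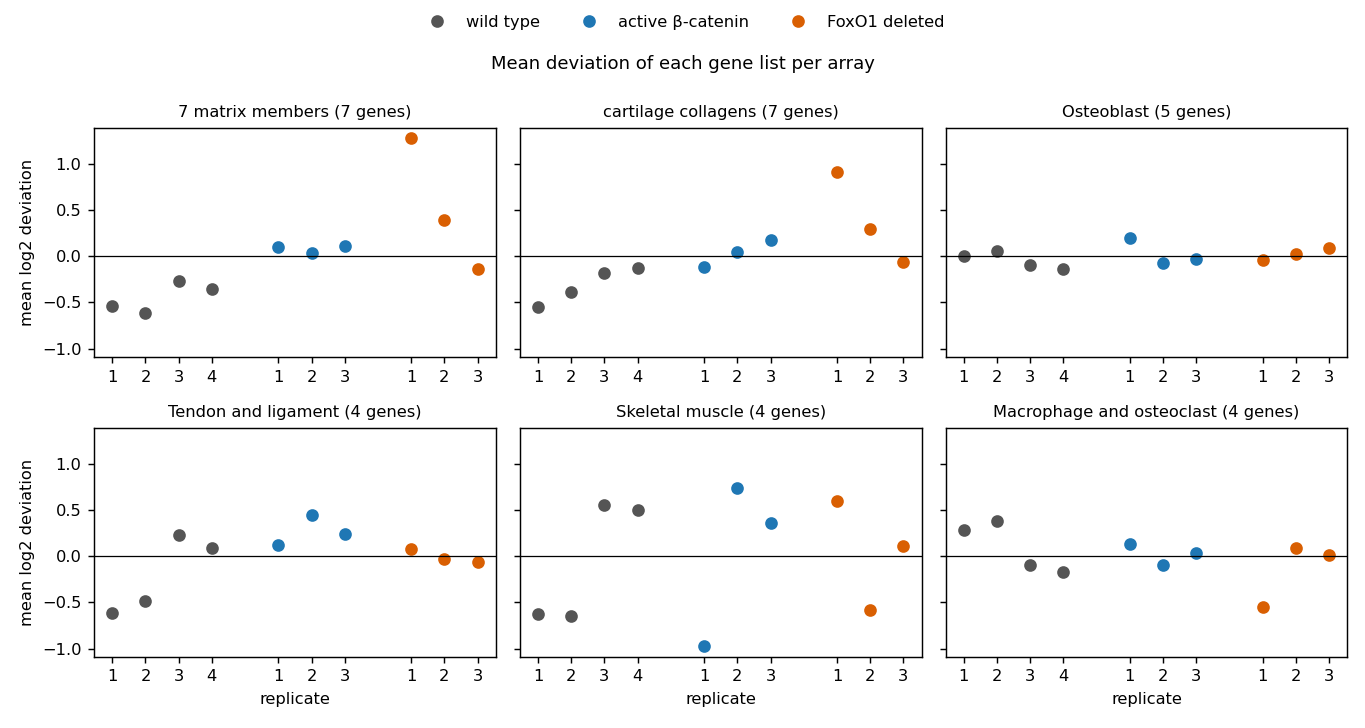
Mean log2 deviation (vertical axis) of 6 gene lists in each array (horizontal axis, replicate number; grey wild type, blue β-catenin active, orange FoxO1 deleted; 1 point per array). The 7 matrix genes and the cartilage collagens peak in FoxO1 deleted 1 (1.27 and 0.91), osteoblast markers stay within -0.13 to 0.20, and macrophage and osteoclast markers are lowest in FoxO1 deleted 1 (-0.55).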

How the data were processed

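Per the submitters' processing notes the authors used MAS5, named without a version, and the deposited table holds log2 signal, a base that follows from the values. The linear mean after trimming was near 500 in every array (499.993 to 500.013), and 500 ng of total RNA was labelled with biotin as cRNA, per the labels. The number of arrays limits the precision.

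Names came from the annotation of the platform, by which, of 45101 probe sets, 34958 had 1 gene symbol, 932 several and 9211 none listed. Probe sets of a gene were ordered by mean signal to choose 1 per gene. The 20127 kept probe sets with 1 symbol entered a model of all 10 arrays with a mean for each genotype and no covariates (limma 3.58.1, R 4.3.3, eBayes with trend, two-sided, 7 residual degrees of freedom). The same model was also run on simulated data with independent normal noise, and no conclusion here rests on that run. Differences are on the log2 scale ± SE, and folds are that difference raised back to the linear scale.

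The 10 genes, the lists and the tests were chosen with earlier results of these data known. All probe sets of the 10 were named, then in each list and comparison up to 4 genes, from the 2 with the smallest p and the 2 with the highest mean, and the 10 genes most alike. Of 110 genes in the lists 104 have a probe set with 1 symbol in the annotation used here and 92 were kept. Other filters, scalings, fits, and leaving out each array were tried.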

Additional observations from a re-analysis of the deposited data

How the results depend on the processing

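None of the 22 cartilage probe sets passed in the main analysis, and 0 passed under every other planned setting except array weights, where 5 of them did with FoxO1 deleted, and leaving out single arrays (0 to 1 with active β-catenin and 0 to 1 with FoxO1 deleted). In arrays with low Xist signal alone 11 passed with FoxO1 deleted, all resting on FoxO1 deleted 1, already the highest array for these probe sets and assumed to vary like the others, so that the outcome supports nothing further, and 1 between the altered genotypes. Why array weights add calls was not tested.

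Over all probe sets, 102 passed with active β-catenin against 170 with only the groups compared, 44 with a term for Xist signal, 13 with similar wild-type arrays averaged, 205 with low Xist signal alone and 37 to 143 with 1 array left out. With FoxO1 deleted 3 passed, against 1 under median scaling, 1 with only the groups compared, 72 with array weights, 8 without a trend, 0 with similar wild-type arrays averaged (626 at an unadjusted p under 0.05 in limma), 126 and 0 with low and high Xist signal alone (1560 and 1653 at an unadjusted p under 0.05), and 0 to 8 with 1 array left out. Between the altered genotypes 89 passed, against 24 with only the groups compared, 17 with the Xist term, 37 with similar wild-type arrays averaged, 13 with low Xist signal alone and 32 to 79 with 1 array left out. Same-numbered arrays had deviations that correlated at -0.26 to 0.24, and differently numbered arrays at -0.26 to 0.26. No pairing by number was seen, though with so few arrays these values cannot exclude it. With the replicate number as a block 20, 0 and 26 probe sets passed (1093 at an unadjusted p under 0.05 in limma for FoxO1 deleted).

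In all, 48 values of single probe sets turned sign, 19 newly passed and 1479 kept direction and side of the threshold. With active β-catenin against wild type, Sox5 turned at 1423500_a_at (-0.053 with the replicate block, -0.19 with the Xist term, -0.15 with low Xist signal, -0.15 to 0.098 with 1 array left out), 1440827_x_at (-0.018 with array weights, -0.044 with the Xist term, -0.15 to 0.15 with 1 array left out) and 1455535_at (-0.057 with the Xist term, -0.027 with low Xist signal, -0.11 to 0.16 with 1 array left out). With the Xist term Matn3 (1422148_at) was at -0.098 and Hapln1 (1426294_at) at -0.028. With FoxO1 deleted, high Xist signal alone gave -0.02 for Sox5 (1440827_x_at) and -0.40, -0.29 and -0.18 for Hapln1 (1421633_a_at, 1426294_at and 1426295_at), and leaving out 1 array gave -0.063 to 0.97 and -0.13 to 0.94 for the first 2 of these.

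Between the altered genotypes array weights gave -7.7e-04 for Sox9 (1424950_at), -0.063 for Sox5 (1432189_a_at) and -0.15 for Sox6 (1426018_a_at). Low Xist signal alone gave -0.043 and -0.073 for Sox9 (1424950_at and 1451538_at), -0.13 for Sox5 (1432189_a_at) and -0.40 for Sox6 (1426018_a_at), and the Xist term -0.24 and -0.023 for Sox6 (1426018_a_at and 1434918_at). Leaving out 1 array gave -0.073 to 0.21 and -0.048 to 0.29 for Sox9, -0.013 to 0.21 for Sox5, -0.048 to 0.41, -0.14 to 0.02 and -0.017 to 0.12 for Sox6, -0.35 to 0.05 for Acan, -0.037 to 0.51 for Chad, and -0.72 to 0.31, -0.77 to 0.30, -0.90 to 0.21 and -0.64 to 0.11 for Hapln1. The cause of these turns was not tested.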

Other observations

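Chad was highest in β-catenin active 1 (9.97, against 8.88 in each other array of that genotype). The same array held the highest values of Sox8 (8.27, next 7.73 in β-catenin active 3) and Zbtb20 (11.28, next 10.8 in β-catenin active 2), and its muscle score of -0.98 was the lowest. These genes were set side by side after their values were seen, and no test links them. For Kera, a proteoglycan counted among the tendon and ligament markers, wild type 1 and 2 read 7.29 and 7.28, wild type 3 and 4 read 9.12 and 9.13, the arrays with active β-catenin 9.32 to 10.19 and those with FoxO1 deleted 8.39 to 9.56. Kera too was chosen after its values were seen. Its split within wild type is wider than that of Matn1, which read 9.94 and 10.04 against 10.94 and 10.97.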
